A study of Homo sapiens with 4 samples.

Results

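Integrin subunits were followed in the human hepatocellular carcinoma line PLC/PRF/5 after lentivirus-mediated knockdown of USP22 and in control cells. The members were 10 subunit genes picked by name: ITGA1, ITGA2, ITGA3, ITGA5, ITGA6, ITGAV, ITGB1, ITGB3, ITGB4 and ITGB5. Of these, 7 had rows in the deposited count table and ITGA2, ITGA6 and ITGAV were not analysed here. The 7 genes had 10 of the 14540 rows, 1 row per RefSeq mRNA accession. The row with the highest summed count was taken as a gene's main row. There were 2 USP22 knockdown libraries and 2 control libraries, whose label says no more than control. How many hairpins or clones stand behind a library was not stated. Both groups had been held for 48 h at 1% oxygen and 5% carbon dioxide in high-glucose medium, so every value is from hypoxic cells. The labels do not say that the 2 libraries of a group came from separate cultures, and p-values then measure only the spread between these libraries, which may be technical.

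Integrins are cell surface receptors made of an alpha and a beta subunit, which together bind matrix proteins outside the cell and, through talin and kindlin, the actin cytoskeleton inside it. The alpha subunit largely sets the ligand. ITGB1 pairs with many alpha subunits, among them ITGA1 for collagen, ITGA3 for laminin and ITGA5 for fibronectin, while ITGB3 and ITGB5 pair with ITGAV to bind vitronectin and ITGB4 pairs with ITGA6 in hemidesmosomes. Hepatocytes carry few integrins compared with most epithelia, with the collagen receptor of ITGA1 and ITGB1 and the fibronectin receptor of ITGA5 and ITGB1 among the main ones.

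Library totals ranged from 15027209 to 17194929 counts. CPM below stands for a row's counts divided by the library's effective size after TMM normalization. The USP22 row averaged 403 ± 62.1 CPM in knockdown cells and 2755 ± 257 CPM in control cells (SD, n = 2 each). All 12 hepatocyte and liver epithelial markers had a row, and albumin, alpha-fetoprotein and APOB were counted in every library. The summed level of these markers was 20109 to 30968 CPM in knockdown libraries and 10997 to 13729 CPM in control libraries, and its part in the integrin results was not tested. APOB alone made up most of this sum, with 27525 and 16630 CPM in knockdown libraries and 11626 and 8796 CPM in control libraries. Of the 12 markers, 5 rose in edgeR's quasi-likelihood test (APOB, AFP, FGB, APOH and KRT18) and EPCAM fell (log2 fold change −2.25, adjusted p = 0.0352). Over all genes, 9.08% of tested main rows were higher and 11.1% lower. The other 6 markers did not pass, among them ALB (−0.18, adjusted p = 0.538) and TTR (−0.61, adjusted p = 0.135). KRT8 (0.55, adjusted p = 0.0669) and HNF4A (2.73, adjusted p = 0.0584) did not pass either. HNF4A had 1 row, for 1 of its 10 curated mRNAs in RefSeq. This row had 23 and 18 counts in knockdown libraries and 1 and 5 in control libraries. Fibroblast, endothelial and immune markers had rows for 2, 3 and 2 of 6 genes each, and the other genes of these lists were not analysed here. The endothelial markers VWF and CDH5 had at most 9 and 42 counts in a library, while PECAM1 rose (log2 fold change 1.02, adjusted p = 0.0185). Their summed levels were 14.8 to 14.9, 23.3 to 29.6 and 222 to 384 CPM in knockdown libraries, against 15.6 to 16.1, 11.6 to 17.9 and 305 to 360 CPM in control libraries.

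In the knockdown the fibronectin receptor subunit ITGA5 fell to 1342 ± 73.4 CPM, against 3365 ± 28.7 CPM in control cells (n = 2 each), a 2.51-fold decrease. In bulk RNA, fewer cells that express a subunit and less of its RNA per cell cannot be told apart. The vitronectin receptor subunit ITGB5 rose 1.46-fold. The main rows of ITGA1, ITGA3, ITGB1, ITGB3 and ITGB4 did not pass an adjusted p of 0.05 in edgeR's quasi-likelihood test with Benjamini-Hochberg adjustment over all 12337 tested transcripts, the test behind every adjusted p below unless another is named. So 1 of 7 main rows rose and 1 fell, while over all genes 20.1% of tested main rows passed, 9.08% higher and 11.1% lower. Counted over all 9 tested integrin rows these are the same 2 calls, beside 18.7% of all tested transcripts, 8.49% higher and 10.2% lower. A count of 2 in 7 is near that background and is no result about integrins as a family. Knockdown and control libraries did not overlap for 6 of 7 main rows, beside 61.2% of main rows and 59.6% of tested transcripts over all genes. Of the 10 integrin rows, 5 in the authors' deposited table have a q-value under 0.05, beside 22.1% of that table's rows, and 2 of these also passed here. The median log2 fold change of the 7 was −0.34, against −0.0044 over the main rows of all genes.

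**Figure D1:**
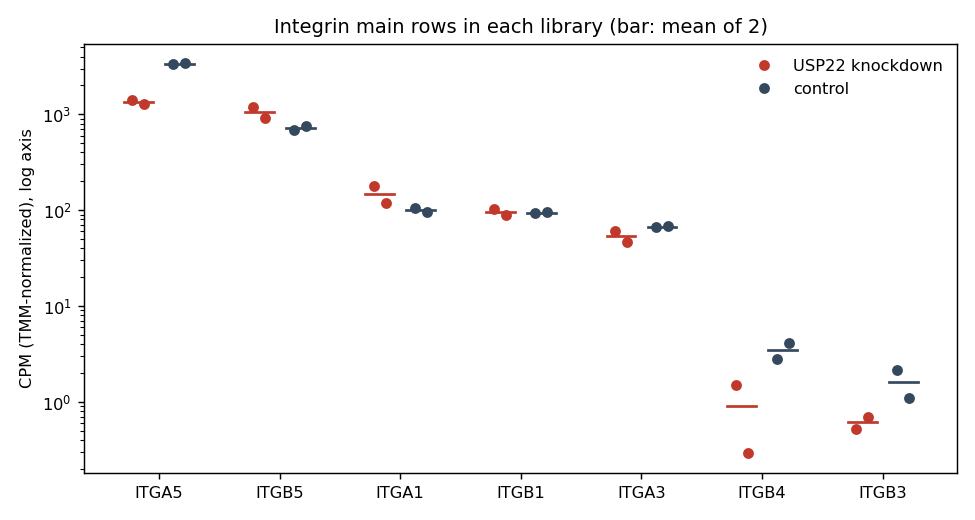
Level of each of the 7 integrin main rows, as TMM-normalized CPM on a log axis, with USP22 knockdown libraries left of control libraries and a bar at the mean of 2 libraries. ITGA5 lies lower in both knockdown libraries and ITGB5 higher, while ITGB4 and ITGB3 lie near or below 4 CPM in every library.

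ITGA5 is the alpha subunit of the main fibronectin receptor. Its row (NM_002205.4) had 21076 and 22146 counts in knockdown libraries and 52980 and 54750 counts in control libraries, which is 1393 and 1290 CPM in knockdown and 3345 and 3386 CPM in control. The groups lay far apart and the 2 libraries of each group lay close together. The log2 fold change was −1.33 ± 0.14 (SE), with a 95% interval of −1.63 to −1.02 and an adjusted p of 5.60e-05. In the authors' deposited table the log2 fold change was −1.31 and the q-value 2.55e-31. ITGA5 was among the most abundant rows of the table, at rank 81 of 12337 by mean CPM in knockdown cells and rank 20 in control cells. Of all tested transcripts, 8.15% had a more negative log2 fold change. It made up 47.3% and 51.6% of the counts in the integrin rows in knockdown libraries, against 77.4% and 76.6% in control libraries. Together the integrin rows took 0.296% and 0.249% of all counts in knockdown libraries and 0.438% and 0.432% in control libraries. The exons of ITGA5 share 48 bases with an antisense gene model, AC079313.1, and the libraries do not mark strand.

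The 3 transcripts of other genes whose profile over the 4 libraries lay closest to that of ITGA5, out of 5729 with a mean of at least 10 CPM, were those of KDM4B, a histone demethylase, BOK, a BCL2 family member, and S100A14, a calcium-binding protein. Likeness was measured as the Euclidean distance between log2 CPM values centred on their mean, which was 0.061 for KDM4B, 0.071 for BOK and 0.086 for S100A14. KDM4B averaged 109 ± 6.08 CPM in knockdown cells and 264 ± 3.70 CPM in control cells (SD, n = 2 each). With 4 libraries in 2 groups, such a distance mostly reflects a like fold change and a like agreement of replicates.

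The promoter windows below span a RefSeq transcript start, in build GRCh38.p14 and on the minus strand, are 300 bases long, and are shown for the 2 subunits that passed the test in opposite directions. Capitals mark matches to 5 short motifs searched on both strands. These were ACGTG, the usual core of hypoxia response elements, with its variant core GCGTG, the GC box GGGCGG, the AP-1 motif TGANTCA bound by FOS and JUN, and the TEAD motif CATTCC. No letter belongs to matches of more than 1 motif here. The ITGA5 window lies at chr12:54419217-54419516 and holds the start of the transcript model matched to its row. The ITGB5 window lies at chr3:124887316-124887615, and the start of the model matched to the ITGB5 row lies 19 bases past its end. It was chosen among the RefSeq windows of ITGB5 as the one nearest to that model, and 2 others further upstream are not shown.
ITGA5: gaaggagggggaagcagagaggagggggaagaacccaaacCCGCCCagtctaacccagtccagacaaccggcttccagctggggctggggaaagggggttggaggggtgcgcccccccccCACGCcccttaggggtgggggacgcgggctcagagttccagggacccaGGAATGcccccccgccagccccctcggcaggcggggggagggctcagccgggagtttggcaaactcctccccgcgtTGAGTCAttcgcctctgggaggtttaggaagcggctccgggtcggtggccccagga
ITGB5: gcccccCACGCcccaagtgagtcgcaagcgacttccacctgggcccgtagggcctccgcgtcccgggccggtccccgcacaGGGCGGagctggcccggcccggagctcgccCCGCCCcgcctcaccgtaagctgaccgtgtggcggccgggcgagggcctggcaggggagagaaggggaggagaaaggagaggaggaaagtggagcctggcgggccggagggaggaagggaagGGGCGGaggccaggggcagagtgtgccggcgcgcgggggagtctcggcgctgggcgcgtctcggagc

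The ITGA5 window held 1 match each to the GCGTG core, the GC box, the AP-1 motif and the TEAD motif and 0 matches to the ACGTG core. The ITGB5 window held 3 matches to the GC box and 1 to the GCGTG core, and 0 to the ACGTG core, the AP-1 motif or the TEAD motif. Among all 35116 windows of this length, 21.4% held the ACGTG core, 36.5% the GCGTG core, 45.0% the GC box, 7.71% the AP-1 motif and 14.03% the TEAD motif. GC content was 69.3% in the ITGA5 window and 75.7% in the ITGB5 window. A match describes the letters and does not show that a factor binds there.

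ITGB5 is the beta subunit that pairs with ITGAV to bind vitronectin. Its row (NM_002213.4) had 17854 and 15865 counts in knockdown libraries and 10908 and 12248 counts in control libraries, or 1180 and 924 CPM in knockdown and 689 and 757 CPM in control. Both knockdown libraries lay above both control libraries, with knockdown replicate 1 well above knockdown replicate 2. The log2 fold change was 0.54 ± 0.16 (SE), with a 95% interval of 0.19 to 0.89 and an adjusted p of 0.0342. By the authors' deposited table ITGB5 differs by 0.56 on the log2 scale, with a q-value of 0.000475. The call did not hold without knockdown replicate 1 (0.39, adjusted p = 0.0616), without control replicate 1 (0.48, adjusted p = 0.200) or without control replicate 2 (0.63, adjusted p = 0.0625). Over 11 alternatives the adjusted p ranged from 0.000223 to 0.200 and the log2 fold change stayed above 0.

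**Figure D2:**
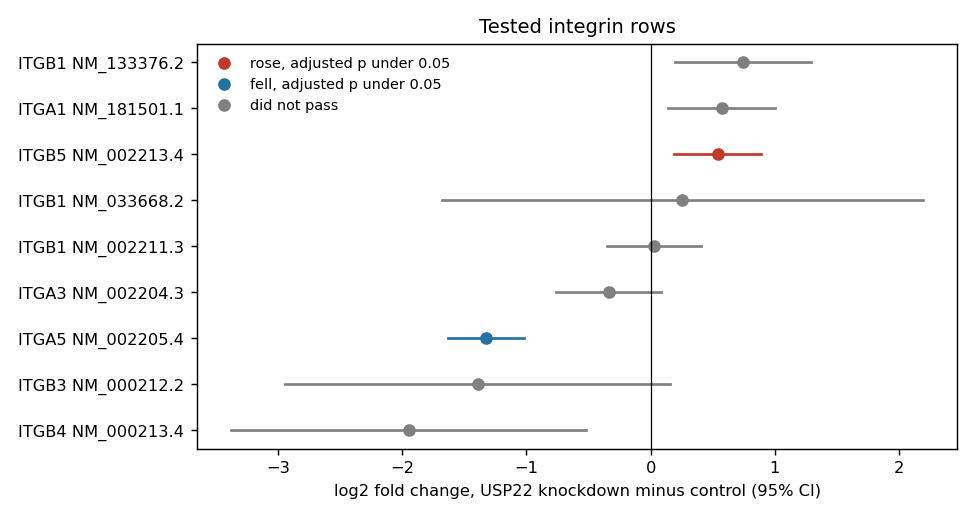
Log2 fold change of the 9 tested integrin rows, USP22 knockdown minus control, with 95% intervals from edgeR's quasi-likelihood fit, coloured by whether the adjusted p was under 0.05. ITGA5 (−1.33) and ITGB5 (0.54) are the coloured rows, and the rows with few counts have the wide intervals.

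ITGB3, the beta subunit of the platelet fibrinogen receptor and of the vitronectin receptor with ITGAV, was close to the detection limit. Its row (NM_000212.2) had 8 and 12 counts in knockdown libraries and 34 and 18 counts in control libraries. The groups did not overlap, but the log2 fold change of −1.39 ± 0.72 (SE) did not pass (adjusted p = 0.205, 95% interval −2.94 to 0.16). Leaving out control replicate 1 gave −0.84 (adjusted p = 0.678), and the adjusted p over 10 alternatives lay between 0.152 and 0.678. Of the exonic bases of ITGB3, 2266 are shared with another coding gene model on the same strand, AC068234.1, so its counts are uncertain.

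ITGA1, the alpha subunit of a collagen receptor, had 2696 and 2065 counts in knockdown libraries and 1672 and 1542 counts in control libraries (NM_181501.1). These are 178 and 120 CPM in knockdown and 106 and 95.4 CPM in control. Knockdown replicate 1 was the highest of the 4 libraries and knockdown replicate 2 lay slightly above control. The log2 fold change was 0.57 ± 0.20 (SE), with a 95% interval of 0.14 to 1.00, and did not pass (adjusted p = 0.0651). Leaving out knockdown replicate 2 made it pass (0.84, adjusted p = 0.000467), and leaving out knockdown replicate 1 gave 0.30 (adjusted p = 0.354), the lowest and highest adjusted p over 11 alternatives. In the authors' deposited table ITGA1 has a q-value of 0.0108. The ITGA1 exons share 475 bases with PELO, a gene that overlaps ITGA1 on the same strand, and 571 bases with a pseudogene model.

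ITGA3, the alpha subunit of a laminin receptor, had 912 and 795 counts in knockdown libraries and 1055 and 1101 counts in control libraries (NM_002204.3), or 60.3 and 46.3 CPM in knockdown and 66.6 and 68.1 CPM in control. Both knockdown libraries lay below both control libraries, by less than the distance between the 2 knockdown libraries for the nearest pair. The log2 fold change of −0.34 ± 0.20 (SE) did not pass (adjusted p = 0.263), and its 95% interval of −0.76 to 0.09 leaves room for a fall or for no change.

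ITGB4, the beta subunit of the hemidesmosome receptor for laminin, had a main row (NM_000213.4) with 23 and 5 counts in knockdown libraries and 44 and 67 counts in control libraries. Both control libraries lay above both knockdown libraries, and knockdown replicate 2 was by far the lowest. The log2 fold change of −1.95 ± 0.66 (SE) did not pass (adjusted p = 0.0577, 95% interval −3.38 to −0.52). It passed in 5 of 10 alternatives, among them leaving out knockdown replicate 1 (−3.50, adjusted p = 0.000721) or control replicate 1 (−2.20, adjusted p = 0.00754), limma-voom (−2.35, adjusted p = 0.0340) and rows summed per gene (−2.12, adjusted p = 0.0199). Without knockdown replicate 2 it was −1.17 (adjusted p = 0.264, the highest of 10 alternatives). The authors' deposited table gives it a q-value of 0.0234. A further accession of ITGB4 (NM_001005619.1) had 2 and 2 counts in knockdown libraries and 27 and 5 counts in control libraries and was too low to be tested. By the GENCODE models matched to these rows, 389 of 5919 bases of the main accession and 159 of 5689 bases of the further accession are absent from the other.

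ITGB1 is the common partner of the collagen, laminin and fibronectin receptor alpha subunits above. Its main row (NM_002211.3) had 1572 and 1519 counts in knockdown libraries and 1469 and 1556 counts in control libraries, or 104 and 88.5 CPM in knockdown and 92.7 and 96.2 CPM in control. The groups overlapped, and the log2 fold change was 0.03 ± 0.18 (SE; adjusted p = 0.944). Its 95% interval of −0.35 to 0.40 leaves out a change of the size seen for ITGA5. Without knockdown replicate 1 its sign turned (−0.06, adjusted p = 0.908).

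A further ITGB1 row, NM_133376.2, had 360 and 484 counts in knockdown libraries and 287 and 210 counts in control libraries, or 23.8 and 28.2 CPM in knockdown and 18.1 and 13.0 CPM in control. Both knockdown libraries lay above both control libraries. The log2 fold change was 0.74 ± 0.25 (SE) and did not pass (adjusted p = 0.0596, 95% interval 0.19 to 1.29). It passed in 6 of 10 alternatives, among them leaving out knockdown replicate 1 (0.90, adjusted p = 0.0163) or control replicate 1 (1.01, adjusted p = 0.0487), DESeq2 (adjusted p = 0.0455), limma-voom (adjusted p = 0.0479) and a filter of 5 CPM in 2 libraries (adjusted p = 0.0499). The adjusted p ranged from 0.00801 to 0.342. The authors' deposited table gives a q-value of 0.0126 for this row and 0.894 for the main row.

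By the GENCODE models matched to the ITGB1 accessions, the main row differs from both others by its first 65 bases and NM_133376.2 by its first 136 bases, so these rows differ at the 5′ end. The row NM_033668.2 holds an internal segment of 81 bases that both others lack, and it also lacks the first 65 bases of the main row. NM_133376.2 held 18.4% and 24.1% of the ITGB1 counts in knockdown libraries, with 95% Wilson intervals of 16.7% to 20.2% and 22.3% to 26.0%. In control libraries it held 16.3% and 11.8%, with intervals of 14.6% to 18.1% and 10.4% to 13.4%. These intervals cover counting error only, and knockdown replicate 1 and control replicate 1 overlapped within them. NM_033668.2 had 25 and 4 counts in knockdown libraries and 9 and 16 in control libraries (log2 fold change 0.26 ± 0.90, adjusted p = 0.883). The matched models of the ITGB1 accessions share most of their bases, and how reads in shared bases were counted was not stated, so no level of the ITGB1 gene is drawn from these rows. The exons of ITGB1 also share 42 bases with the divergent gene model ITGB1-DT.

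**Figure D3:**
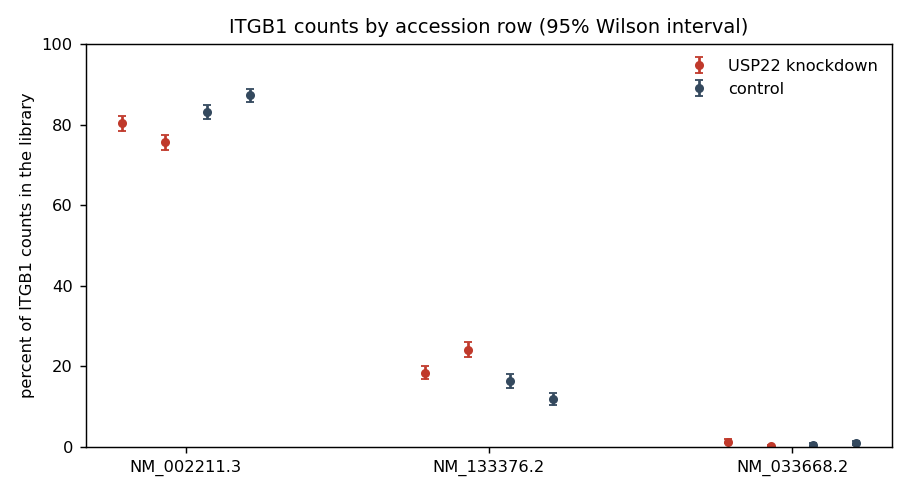
Share of the ITGB1 counts of each library that fell in each accession row, in percent, with 95% Wilson intervals and the knockdown libraries left of the control libraries. NM_133376.2 lies between 18.4% and 24.1% in knockdown libraries and between 11.8% and 16.3% in control libraries.

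Levels of different subunits were compared as CPM per kilobase of the matched transcript model, and only for subunits with 1 row in the table. In knockdown libraries ITGA5 was highest, at 314 and 290 CPM per kilobase, followed by ITGB5 at 270 and 211. ITGA1 at 16.6 and 11.2 and ITGA3 at 12.3 and 9.47 CPM per kilobase overlapped each other in knockdown libraries, and ITGB3 had 0.132 and 0.175. In control libraries ITGA5 had 753 and 762 CPM per kilobase and ITGB5 158 and 173. In these libraries ITGA3, at 13.6 and 13.9, lay above ITGA1, at 9.81 and 8.86, and ITGB3 had 0.537 and 0.279. ITGB5 has 4 curated mRNA accessions in the RefSeq table used here, so its level may be understated if reads shared by accessions were not counted.

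Ratios of raw counts within a library do not depend on scaling between libraries. For 1 count of ITGB5 there were 1.18 and 1.40 counts of ITGA5 in knockdown libraries and 4.86 and 4.47 in control libraries. The ratio of ITGA5 to ITGA1 was 7.82 and 10.7 in knockdown libraries and 31.7 and 35.5 in control libraries, and that of ITGA5 to ITGA3 was 23.1 and 27.9 in knockdown and 50.2 and 49.7 in control. Against the main row of its partner ITGB1, ITGA5 stood at 13.4 and 14.6 in knockdown and 36.1 and 35.2 in control. ITGB1 has 3 rows, and how reads shared by them were counted was not stated. That ratio therefore compares rows and does not give the level of ITGA5 relative to the ITGB1 gene. ITGA5 therefore moved unequally to each of these 4 main rows. ITGB5 and ITGA1 kept about the same ratio to each other, 6.62 and 7.68 in knockdown libraries and 6.52 and 7.94 in control libraries, and these values overlapped.

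**Figure D4:**
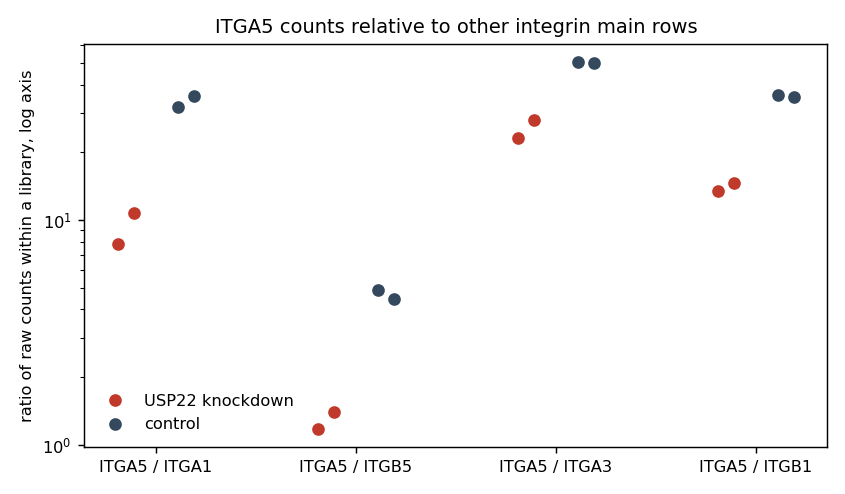
Raw counts of ITGA5 divided by those of ITGA1, ITGB5, ITGA3 and the ITGB1 main row within each library, on a log axis, USP22 knockdown left of control. The main row does not hold all ITGB1 counts, so its ratio does not compare levels of the genes. All 4 ratios lie lower in both knockdown libraries, with ITGA5 to ITGB5 at 1.18 and 1.40 in knockdown and 4.86 and 4.47 in control.

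Of 16 further integrin subunit genes, 9 could be tested. Among these 0 rose and 2 fell, beside 9.08% of tested main rows higher and 11.1% lower over all genes. The other 7 did not pass, and the list's median log2 fold change was −0.09. ITGA2B, the platelet partner of ITGB3, fell to 37 and 55 counts in knockdown libraries, against 196 and 187 in control libraries (log2 fold change −2.08 ± 0.33, adjusted p = 0.000990). ITGAX, a subunit of leukocyte integrins, had 0 and 0 counts in knockdown libraries and 24 and 20 in control libraries (adjusted p = 0.00429). Against a floor of 3 counts per library this is at least 7.38-fold lower in knockdown cells, and the median of the list is the same with ITGAX at that bound. The most abundant of these 9 rows was that of ITGAE, the partner of ITGB7 in lymphocyte binding to E-cadherin, chosen after its values were seen, with 22.8 ± 1.64 CPM in knockdown cells and 27.5 ± 0.40 CPM in control cells (n = 2 each; adjusted p = 0.447).

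Of 45 genes for adaptors and kinases at the inner face of integrins, 36 could be tested. Among these 2 rose and 4 fell, beside 9.08% of tested main rows higher and 11.1% lower over all genes. The other 30 did not pass, and the list's median was −0.04. Some of these 30 rows held few counts, such as PTK2 with 43 and ILK with 68 over the 4 libraries. For such rows a missing call does not show that the gene was unchanged. The PTK2 main row is for 1 of 131 curated mRNAs in RefSeq and the ILK row for 1 of 5. These counts therefore do not give the level of either gene. TLN2, one of both talins that bind beta tails, rose to 108 ± 3.90 CPM in knockdown cells, against 37.7 ± 9.61 CPM in control cells (1.53 ± 0.21, adjusted p = 0.000323). TNS3, a tensin that also binds beta tails, rose to 273 ± 22.3 CPM, against 139 ± 4.34 CPM in control cells (0.98 ± 0.16, adjusted p = 0.00125). FYN, a SRC family kinase, had 1 row, for 1 of its 4 curated mRNAs in RefSeq. This row fell to 11 and 5 counts in knockdown libraries, against 60 and 48 in control libraries (−2.73 ± 0.62, adjusted p = 0.00834). Without knockdown replicate 1 its log2 fold change was −3.47, and without knockdown replicate 2 it was −2.19. TES, a LIM protein of focal adhesions, fell to 13.4 ± 1.08 CPM in knockdown cells, against 36.3 ± 3.98 CPM in control cells (−1.44 ± 0.23, adjusted p = 0.00107). TLN1, the more abundant talin, was chosen after its values were seen and had 2757 ± 163 CPM in knockdown cells and 2469 ± 24.1 CPM in control cells (adjusted p = 0.478).

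Of 34 ligand genes, 21 could be tested. Among these 4 rose and 4 fell, beside 9.08% of tested main rows higher and 11.1% lower over all genes. The other 13 did not pass, and the list's median was −0.11. COL3A1, a fibrillar collagen, rose to 574 and 263 counts in knockdown libraries, against 32 and 96 in control libraries (2.74 ± 0.48, adjusted p = 0.00174), with 1.98 without knockdown replicate 1 and 3.73 without control replicate 2. CTGF, a matricellular protein, rose to 156 ± 53.8 CPM in knockdown cells, against 74.3 ± 22.7 CPM in control cells (1.07 ± 0.25, adjusted p = 0.0101). COL4A2, a basement membrane collagen, had 2 and 2 counts in knockdown libraries and 16 and 51 in control libraries (−3.99 ± 0.93, adjusted p = 0.00928). Its call did not hold without control replicate 2 (−2.93, adjusted p = 0.153) or in limma-voom (adjusted p = 0.0602), over a range of 8.22e-05 to 0.153 in 10 alternatives. LAMB3, a chain of laminin-332, fell to 3.45 ± 0.353 CPM in knockdown cells, against 9.41 ± 0.359 CPM in control cells (−1.45 ± 0.33, adjusted p = 0.00870). These values are for the main of its 2 rows, and rows summed per gene gave −1.22 (adjusted p = 0.0214).

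The direct ligands of the subunits that passed the test were chosen after their values were seen. VTN, vitronectin, had 3443 ± 619 CPM in knockdown cells and 3299 ± 372 CPM in control cells (n = 2 each; adjusted p = 0.837). The only FN1 row, for 1 of 18 curated fibronectin mRNA accessions in the RefSeq table used here, had 91 and 33 counts in knockdown libraries and 30 and 16 in control libraries and did not pass (1.45 ± 0.59, adjusted p = 0.109). Leaving out knockdown replicate 2 (2.07, adjusted p = 0.00471) or control replicate 1 (1.99, adjusted p = 0.0172) made it pass, within a range of 0.00471 to 0.793 over 10 alternatives. Counts this few say little on fibronectin itself.

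Of 20 membrane partners of integrins, 15 could be tested. Among these 1 rose and 6 fell, beside 9.08% of tested main rows higher and 11.1% lower over all genes. The other 8 did not pass, and the list's median was −0.17. SDC1, a heparan sulfate proteoglycan, rose to 22.9 ± 4.96 CPM in knockdown cells, against 8.49 ± 0.670 CPM in control cells (1.43 ± 0.27, adjusted p = 0.00285). These values are for the main of its 2 rows, and rows summed per gene gave 1.29 (adjusted p = 0.00216). CAV1, the coat protein of caveolae, had rows for 2 of its 4 curated mRNAs in RefSeq. Its main row fell to 22 and 41 counts in knockdown libraries, against 164 and 279 in control libraries (−2.83 ± 0.39, adjusted p = 0.000330). CD9, a tetraspanin, had 1 row, for 1 of its 14 curated mRNAs in RefSeq. This row had 30 and 11 counts in knockdown libraries and 113 and 60 in control libraries (−2.06 ± 0.55, adjusted p = 0.0200). Leaving out knockdown replicate 2 (−1.44, adjusted p = 0.0595) or control replicate 1 (−1.505, adjusted p = 0.0886) ended its call, and leaving out knockdown replicate 1 gave −3.03. The adjusted p ranged from 7.16e-05 to 0.0886 over 10 alternatives. SDC4, a syndecan that acts with the fibronectin receptor at focal adhesions, was chosen after its values were seen. It fell to 323 ± 11.98 CPM in knockdown cells, against 728 ± 123 CPM in control cells (−1.17 ± 0.17, adjusted p = 0.000403).

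**Figure D5:**
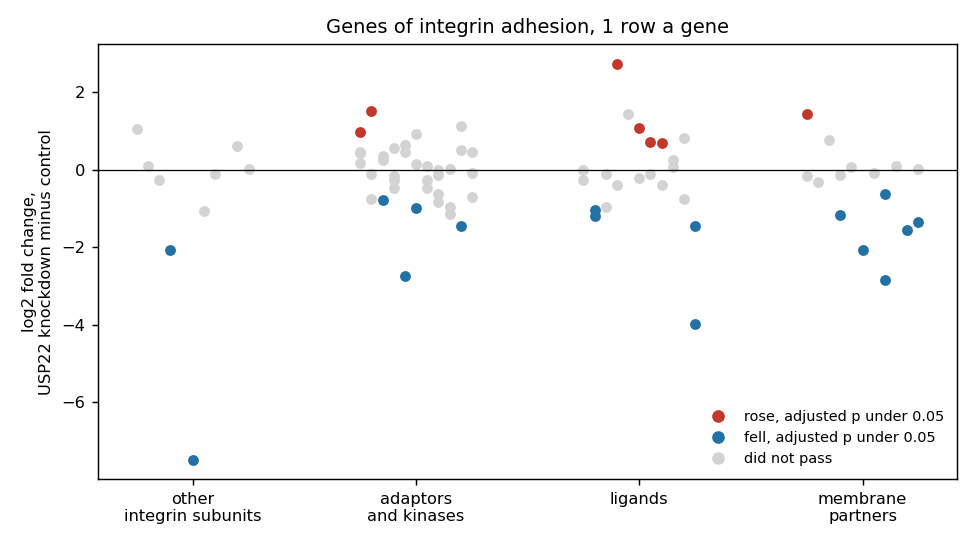
Log2 fold change, USP22 knockdown minus control, of the 81 tested genes in 4 lists of integrin adhesion, 1 row a gene, coloured by whether the adjusted p was under 0.05. Of these genes 7 rose and 16 fell, and the lowest point is ITGAX, which had no count in knockdown libraries and whose fitted value depends on the prior count.

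Over these 4 lists, 7 of 81 tested genes rose, 16 fell and 58 did not pass, beside 9.08% of tested main rows higher and 11.1% lower over all genes.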

How the data were processed

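RNA of 2 USP22 knockdown and 2 control samples of PLC/PRF/5 cells was sequenced with a NEBNext Ultra RNA kit, per the labels' protocols, whose libraries carry no strand information. Samples were grouped by their titles. The authors deposited raw counts per RefSeq mRNA accession, and per the file headers also their log2 fold change of knockdown over control with its p-value and a q-value, from a tool that was not stated. Per the submitters' processing notes, bcl2fastq, HISAT2 2.1.0, HTSeq and build hg19 were used. The counting settings were not stated, so rows of genes with several accessions may be understated.

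Rows were kept by filterByExpr with a minimum count of 10 (12337 of 14540 rows) and tested with edgeR 4.0.16 in R 4.3.3 (TMM, quasi-likelihood test, no covariate, threshold 0.05 on Benjamini-Hochberg adjusted p). A standard error is the log2 fold change divided by the square root of F. The common biological coefficient of variation was 22.1%. The pipeline was tested on simulated data drawn with the same dispersion in every row, so that test does not bear on the calls reported here. Libraries of a group differed beyond counting noise, with a chi-square per degree of freedom of 33.7 in knockdown and 17.9 in control. Transcript models came from GENCODE and promoter windows from RefSeq (GRCh38.p14), and coordinates are those of the windows. RefSeq restored 29 gene symbols that the table held as dates.

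The members, gene lists and tests were chosen with earlier results of these data known. In each list the named genes are the 2 that passed with the largest log2 fold change up and the 2 with the largest down. TLN1, ITGAE, VTN, FN1 and SDC4 were added after their values were seen. Alternatives were DESeq2 1.42.0 and its size factors, limma 3.58.1 (voom), other filters, a replicate block, leaving out each library, summing rows per gene and a threshold of 0.01.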

Additional observations from a re-analysis of the deposited data

How the results depend on the processing

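ITGA5 passed under all 11 alternatives, with log2 fold changes of −1.35 to −1.26. Over the 7 members' main rows, 64 alternative values kept direction and side of the threshold, 3 lost the call (all ITGB5), 7 gained one (ITGA1 and ITGB4) and 1 changed sign (ITGB1, −0.057, in a leave-one-out range of −0.057 to 0.15). VTN changed sign without knockdown replicate 2 (−0.13) and without control replicate 1 (−0.044), in a range of −0.13 to 0.27. The labels number the libraries 1 and 2 in each group, but with 2 pairs this says only that they share a number (correlation of same-numbered deviations 0.112 over transcripts, which are not independent). With the replicate block, 1672 transcripts were called higher and 1859 lower. It called 2 integrin main rows higher (ITGB5 and ITGA1) and 2 lower (ITGA5 and ITGB4). Leaving out 1 library gave 685 to 1340 transcripts higher, 1020 to 1297 lower, 0 to 2 integrin main rows higher and 1 to 2 lower. An adjusted p under 0.01 left 433 transcripts higher and 686 lower, with 0 integrin main rows higher and 1 lower (ITGA5). Both limma-voom and summing rows per gene called 2 integrin main rows lower (ITGA5 and ITGB4). A filter of 5 CPM removed ITGB3 and ITGB4. The causes were not tested. The main rows of ITGB3 and ITGB4 held at most 67 counts in a library.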
